A study of Homo sapiens with 2 samples.

Results

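The metallothionein genes described here are the rows of the authors' deposited table whose symbol is MT1 followed by letters, or MT2A. The rule found 5 genes of the 2005 in that table: MT1E, MT1F, MT1G, MT1H and MT1X. MT2A has no row there. The RNA came from HES2 cells, an established human embryonic stem cell line, and was sequenced in 1 library after infection with a lentivirus that knocks down TFCP2L1 by a short hairpin RNA (the Tfcp2l1 shRNA library) and in 1 library after infection with a scramble lentivirus (the scramble library). TFCP2L1 is a transcription factor of the pluripotency network. Both cultures had the same basal medium with 10% KSR, a serum replacement, and 10 ng/ml each of FGF2 and Activin A, and both were kept for 3 passages. With 1 library per group, every difference below is between these 2 libraries and has no replicate check.

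Metallothioneins are small proteins that bind zinc, copper and cadmium through clusters of cysteine thiolates. They buffer free zinc and detoxify heavy metals. Their genes are switched on by the zinc-sensing factor MTF1, which binds metal response elements in their promoters, and also respond to oxidative stress and glucocorticoids.

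The coding sequences show how alike the members are, which bears on how far their levels can be told apart. All 5 members lie on chromosome 16, and the principal GENCODE 29 transcript of each has 3 exons and 186 coding bases, stop codon included. The coding parts of the most strongly lower members (MT1H and MT1G) and of the most abundant member (MT1X) are shown 5′ to 3′ on the coding strand, with the codons for cysteine (TGC or TGT, read in frame) in capitals. On GRCh38 the coding part of MT1H spans chr16:56669885-56670989 (plus strand), that of MT1G chr16:56666879-56667993 (minus strand) and that of MT1X chr16:56682541-56684049 (plus strand), introns included.
MT1H: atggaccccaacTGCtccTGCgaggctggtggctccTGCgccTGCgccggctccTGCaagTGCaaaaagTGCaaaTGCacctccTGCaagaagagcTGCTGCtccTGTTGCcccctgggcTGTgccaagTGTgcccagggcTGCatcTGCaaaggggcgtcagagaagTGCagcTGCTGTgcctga
MT1G: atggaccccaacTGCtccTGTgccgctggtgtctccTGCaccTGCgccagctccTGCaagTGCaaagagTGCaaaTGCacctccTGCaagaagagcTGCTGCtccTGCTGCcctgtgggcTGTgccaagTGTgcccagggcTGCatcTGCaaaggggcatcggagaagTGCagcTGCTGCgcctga
MT1X: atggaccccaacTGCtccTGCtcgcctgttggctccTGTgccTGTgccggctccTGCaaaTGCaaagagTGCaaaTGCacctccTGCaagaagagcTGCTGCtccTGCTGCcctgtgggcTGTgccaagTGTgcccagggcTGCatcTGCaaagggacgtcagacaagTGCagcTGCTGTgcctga
Each of the 5 members has 20 cysteine codons among 61, which is 32.8% of the codons, and all 20 stand at the same positions in every member, from codon 5 to codon 60. Of the 186 coding positions, 154 hold the same base in all 5 members and 32 vary. Identity between 2 members ran between 88.7% (MT1F and MT1X) and 94.6% (MT1E and MT1G), and MT1G and MT1H were 93.0% identical.

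The promoters are shown because metal response elements are the known route of control of these genes. RefSeq's promoter table (GRCh38.p14) matched 2 of the 5 members, MT1H and MT1X. The 250 bases before the annotated start are printed for MT1H (chr16:56669564-56669813, plus strand) and MT1X (chr16:56682220-56682469, plus strand), with matches to the core of the metal response element in capitals. The core was searched as TGCGCNC and as TGCACNC, on both strands.
MT1H: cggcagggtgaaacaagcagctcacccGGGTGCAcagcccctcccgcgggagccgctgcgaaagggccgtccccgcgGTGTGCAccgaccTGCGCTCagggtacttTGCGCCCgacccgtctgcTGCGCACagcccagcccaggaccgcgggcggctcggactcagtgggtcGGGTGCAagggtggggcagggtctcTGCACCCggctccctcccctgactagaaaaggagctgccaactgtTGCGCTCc
MT1X: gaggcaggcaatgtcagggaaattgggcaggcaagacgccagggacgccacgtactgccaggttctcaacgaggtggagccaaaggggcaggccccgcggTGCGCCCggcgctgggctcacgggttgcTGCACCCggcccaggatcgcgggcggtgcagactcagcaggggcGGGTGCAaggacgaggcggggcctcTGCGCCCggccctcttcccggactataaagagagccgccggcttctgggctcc
The MT1H window holds 8 cores, 4 of each form, and the MT1X window holds 4, 2 of each form. At least 1 core is present in 24.8% of 35114 windows of the same length, at least 4 in 0.370% and at least 8 in 0.0171% (6 windows). The windows of MT2A and MT1B, relatives without a row, hold 7 and 3 cores. No core overlaps another. In both members a core of the A form lies at bases -78 to -72 on the minus strand, and a further core lies at bases -53 to -47 on the plus strand, of the A form in MT1H and of the G form in MT1X.

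Other motifs were fewer. The GC box (GGGCGG, in 42.6% of all windows) occurs at 1 place in MT1H and at 2 in MT1X, where 1 of them overlaps a metal response core by its last 2 bases. The TATA box (TATAAA, 10.7%) and the antioxidant response core (TGACNNNGC, 10.9%) each occur at 1 place in MT1X and have no match in MT1H. The AP-1 site (TGANTCA, 6.57%) and the E-box (CACGTG, 6.35%) have no match in either window. Each motif was read on both strands, and a match describes these letters only.

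**Figure D1:**
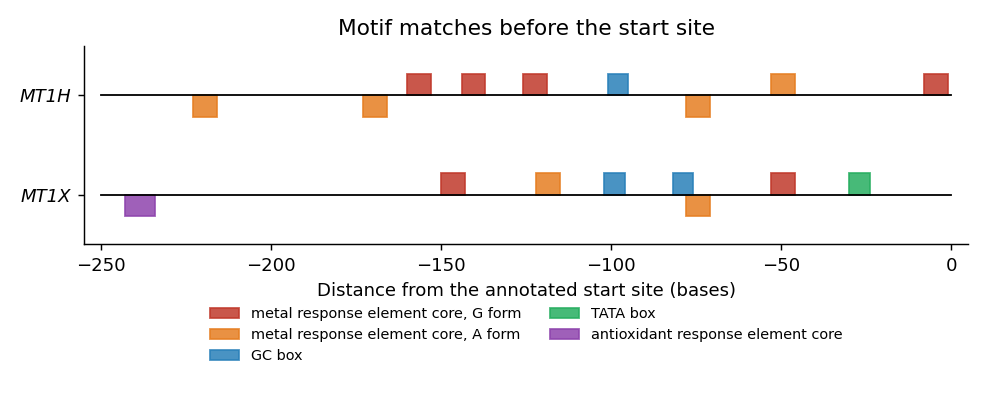
Motif matches in the 250 bases before the annotated start of MT1H and MT1X; the horizontal axis is the distance from the start in bases, boxes above each line are matches on the plus strand and boxes below it on the minus strand. MT1H has 8 metal response cores and MT1X has 4, and both have a core at bases -78 to -72 and at -53 to -47.

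The 2 libraries held about 22724286 reads (Tfcp2l1 shRNA) and 23503051 reads (scramble), as inferred from the deposited values. The targeted gene TFCP2L1 (gene ID 29842) had 69 reads in the Tfcp2l1 shRNA library and 692 in the scramble library, 9.70-fold lower (interval 7.56 to 12.6). Levels are given in FPKM, which scales reads by gene length and library depth, so that they can be compared between genes. Ratios are Tfcp2l1 shRNA over scramble after scaling reads by depth, and intervals are exact (Clopper-Pearson) 95% intervals. They reflect counting error alone, and since no molecular identifiers were used, reads are not independent molecules.

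All 5 metallothionein genes were lower in the Tfcp2l1 shRNA library. Their summed level was 25.6 FPKM in the Tfcp2l1 shRNA library, against 103 FPKM in the scramble library. In reads the sum was 232 (exact Poisson interval 203 to 264) in the Tfcp2l1 shRNA library and 938 (879 to 1000) in the scramble library, which is 3.91-fold lower (interval 3.38 to 4.53). Without MT1X, the most abundant member, the sum of the other 4 genes was 9.74 FPKM in the Tfcp2l1 shRNA library and 45.8 FPKM in the scramble library, and their reads were 4.43-fold lower (interval 3.51 to 5.66).

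MT1G (gene ID 4495) had the steepest drop among members with reads in both libraries. Its level was 1.49 FPKM in the Tfcp2l1 shRNA library and 22.7 FPKM in the scramble library. These levels rest on 12 reads in the Tfcp2l1 shRNA library and 187 in the scramble library. The gene was thus 15.1-fold lower (interval 8.42 to 29.7).

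MT1H (gene ID 4496) was not detected in the Tfcp2l1 shRNA library. The table lists it there at 0.01 FPKM, the lowest value it uses, with 0 inferred reads. The exact Poisson interval for 0 reads ends at 3.69 reads, and 3 reads would be 0.402 FPKM. In the scramble library it was at 2.98 FPKM, from 23 reads. With 3 reads set as a floor in the Tfcp2l1 shRNA library, MT1H would be 7.41-fold lower. The interval of the ratio reaches 5.56-fold lower at its near end. Its log2 ratio depends on the pseudocount, at -1.98 with 1 FPKM, -4.81 with 0.1 FPKM and -8.22 in the authors' deposited table. The data set no upper limit to its fold.

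MT1X (gene ID 4501) was the most abundant member in both libraries, at 15.9 FPKM in the Tfcp2l1 shRNA library and 57.5 FPKM in the scramble library. It had 145 reads in the Tfcp2l1 shRNA library and 539 in the scramble library, and was 3.59-fold lower (interval 2.99 to 4.35). This is the best-counted member.

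MT1F (gene ID 4494) had the smallest difference, at 7.08 FPKM in the Tfcp2l1 shRNA library and 16.5 FPKM in the scramble library. With 63 reads in the Tfcp2l1 shRNA library and 150 in the scramble library it was 2.30-fold lower (interval 1.70 to 3.14). MT1E (gene ID 4493) was a low-level member, at 1.17 FPKM in the Tfcp2l1 shRNA library and 3.69 FPKM in the scramble library. Its 12 reads in the Tfcp2l1 shRNA library and 39 in the scramble library made it 3.14-fold lower, with a wide interval (1.61 to 6.59).

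**Figure D2:**
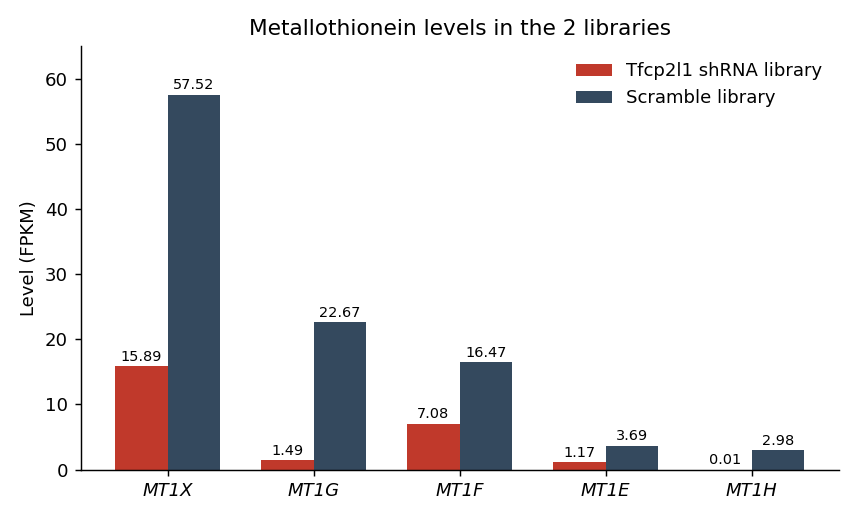
Level in FPKM (vertical axis) of the 5 metallothionein genes in the Tfcp2l1 shRNA library (red, left bar of each pair) and the scramble library (dark, right bar); each bar is 1 library. MT1X is the highest in both libraries, and MT1G is at 1.49 FPKM in the Tfcp2l1 shRNA library, against 22.7 FPKM in the scramble library.

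The order of the levels differed between the libraries. In the Tfcp2l1 shRNA library MT1X (15.9 FPKM) was followed by MT1F (7.08 FPKM), MT1G (1.49 FPKM), MT1E (1.17 FPKM) and MT1H. In the scramble library MT1X (57.5 FPKM) was followed by MT1G (22.7 FPKM), MT1F (16.5 FPKM), MT1E (3.69 FPKM) and MT1H (2.98 FPKM). In the Tfcp2l1 shRNA library the Poisson intervals of the levels of MT1G (0.770 to 2.60 FPKM) and MT1E (0.605 to 2.04 FPKM) overlapped, so their order is not resolved there. In the scramble library those of MT1E (2.62 to 5.04 FPKM) and MT1H (1.89 to 4.47 FPKM) overlapped, while those of MT1G (19.5 to 26.2 FPKM) and MT1F (13.9 to 19.3 FPKM) did not.

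Within the reads of the 5 members, the share of MT1G was smaller in the Tfcp2l1 shRNA library, and that of MT1F larger. These are not shares of the whole family, because metallothionein genes without a row are not counted. MT1G held 5.17% of the members' reads in the Tfcp2l1 shRNA library (exact binomial interval 2.70 to 8.86) and 19.9% in the scramble library (17.4 to 22.6). MT1F held 27.2% in the Tfcp2l1 shRNA library (21.5 to 33.4) and 15.99% in the scramble library (13.7 to 18.5). Neither pair of intervals overlapped. MT1X held 62.5% in the Tfcp2l1 shRNA library (55.9 to 68.7) and 57.5% in the scramble library (54.2 to 60.7), with overlapping intervals. MT1E likewise held 5.17% in the Tfcp2l1 shRNA library (2.70 to 8.86) and 4.16% in the scramble library (2.97 to 5.64).

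Some of the members' ratios differed by more than their counting intervals. These intervals take reads as independent and as assigned to the right copy. Of 10 pairs of members, 5 had counting intervals that did not overlap. The share among other pairs of listed genes was not computed. The ratio of MT1G was 0.0664 (interval 0.0337 to 0.119), below those of MT1X (0.278, interval 0.230 to 0.335), MT1E (0.318, interval 0.152 to 0.620) and MT1F (0.434, interval 0.318 to 0.587). The upper end for MT1H (0.180) was below the intervals of MT1X and MT1F but not below that of MT1E. The intervals of MT1X, MT1E and MT1F overlapped each other, so counting error alone does not separate these 3 ratios. How much each gene varies between cultures is unknown with 1 library per group.

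**Figure D3:**
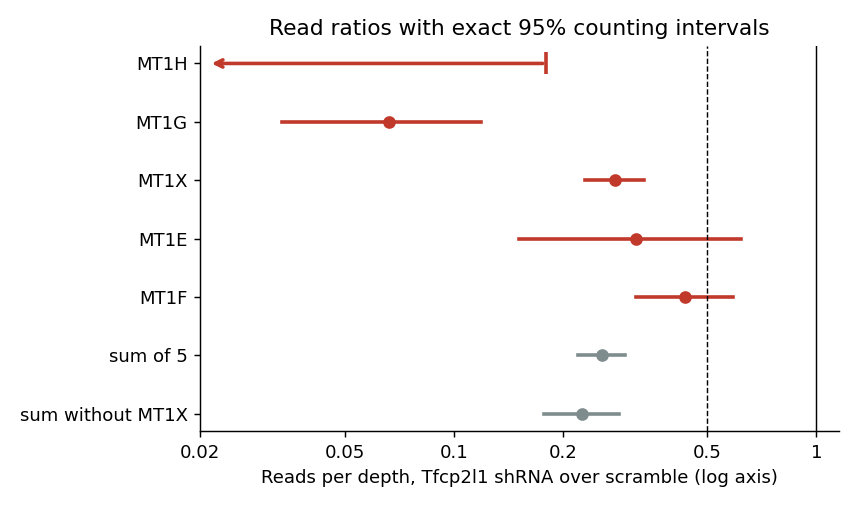
Ratio of depth-scaled reads, Tfcp2l1 shRNA over scramble (horizontal log axis), for the 5 metallothionein genes (red) and for their sums (grey); points are ratios, lines are exact 95% counting intervals, the solid vertical line marks equal levels and the dashed line a ratio of 0.5. The line of MT1H ends in an arrow because no read was inferred in the Tfcp2l1 shRNA library, and the intervals of MT1E and MT1F cross the dashed line.

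The members were selected on the values above, because the authors' deposited table holds only genes past limits on the log2 ratio (1 or more in size) and the false discovery rate (at most 0.000990). They are therefore a description. All 5 members were at least 2-fold lower at 1 FPKM or more in a library, as were 35.4% of all listed genes. These were 710 of the 921 listed lower genes. The listed lower genes are 4.98% of the 18489 genes that the authors tested, a number inferred from their p-values. The counting interval lay wholly below a ratio of 0.5 for 3 members (MT1H, MT1G and MT1X), as it did for 26.7% of listed genes. Those were 535 of the 921 lower genes. The median log2 ratio, with 0.1 FPKM added to each level, was -1.85 over the 5 members and 1.01 over all listed genes, or -1.37 over the 921 lower ones. MT1F is nearest to the limit on the ratio, with a log2 ratio of -1.22 in the authors' deposited table. MT1E is nearest to the limit on the false discovery rate, at 0.000515 in the authors' deposited table, and values just outside these limits are not analysed here.

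Of the 1587 listed genes that reached 1 FPKM in either library, MT1H had rank 2 and MT1G rank 6 from the lowest log2 ratio, while MT1X, MT1E and MT1F had ranks 157, 256 and 496. The rank of MT1H rests on the pseudocount of 0.1 FPKM, since it has no read in the Tfcp2l1 shRNA library. With 1 FPKM its log2 ratio was -1.98, against -3.25 for MT1G, so the order of these members turned. Nearness by level was the Euclidean distance on the log2 scale over the 2 libraries, among listed genes with a symbol. The genes nearest to MT1X were ALDOC (17.6 FPKM in the Tfcp2l1 shRNA library and 50.5 FPKM in the scramble library), PIM1 and ACTN3. Their distances were 0.24, 0.28 and 0.29. The genes nearest to MT1G were AIF1, NPTX2 and EPHA1-AS1, at distances of 0.91, 1.01 and 1.07. MT1G thus had no listed gene with a symbol as near to it as MT1X had. EPHA1-AS1 is an antisense RNA gene, and without a known strand setting its reads cannot be told apart from those of EPHA1.

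**Figure D4:**
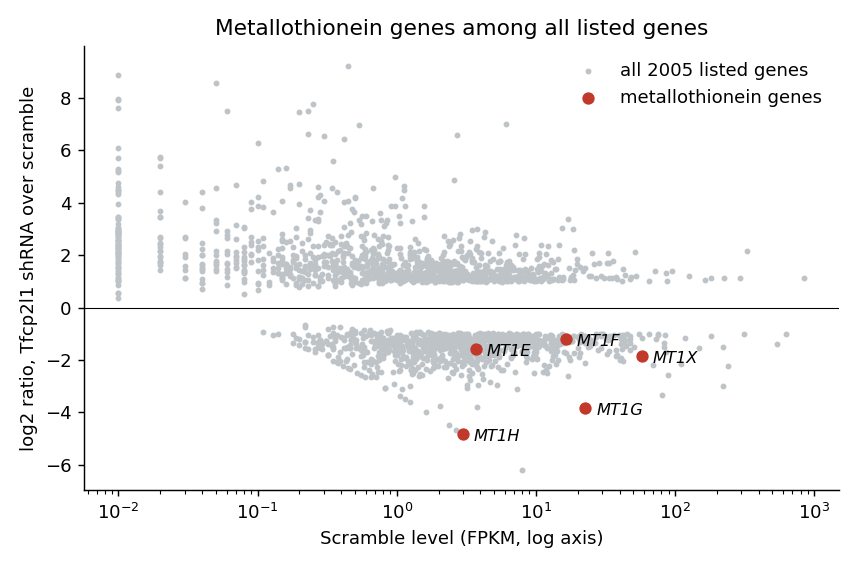
Scramble level (horizontal log axis, FPKM) against the log2 ratio of Tfcp2l1 shRNA over scramble with 0.1 FPKM added (vertical axis) for all 2005 listed genes (grey) and the 5 metallothionein genes (red, named). The empty band around 0 reflects the limits of the authors' table, and MT1G and MT1H lie at -3.84 and -4.81.

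Reads of these genes are hard to assign because the copies share sequence, and the way shared reads were assigned is not given in the sources used here. Of the 31-base words of the principal transcript, 48.1% also occur in another gene for MT1X, 37.1% for MT1H, 31.4% for MT1G, 15.3% for MT1E and 8.33% for MT1F. With 50-base words the shares were 45.1%, 20.4%, 20.2%, 5.34% and 3.59%. Most of the sharing of MT1X is with AC026461.1, a processed transcript that overlaps it on the same strand and holds 32.4% of its 31-base words. MT1H shares most with MT1HL1 (24.3%) and then with MT1G (14.4%). MT1G shares most with MT1X (17.6%). AC026461.1 overlaps MT1X at its own locus, so the 48.1% of MT1X is not sharing with other copies alone. With the other listed members, the shares were 30.05% for MT1G, 16.1% for MT1H, 15.7% for MT1X, 5.76% for MT1F and 3.86% for MT1E. Single-gene levels of MT1G, MT1H and MT1X are uncertain because of shared sequence. By these shares, those of MT1E and MT1F are so to a lesser degree. The principal transcripts of MT1E (704 bases) and MT1F (690 bases) are longer than the lengths that the authors used (519 and 457 bases). Their shares over the authors' lengths are not known. The sum over the 5 members is not changed by reads that move among them, but it is changed by reads that move between them and genes outside it, such as MT2A, which holds 11.9% of the words of MT1X.

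**Figure D5:**
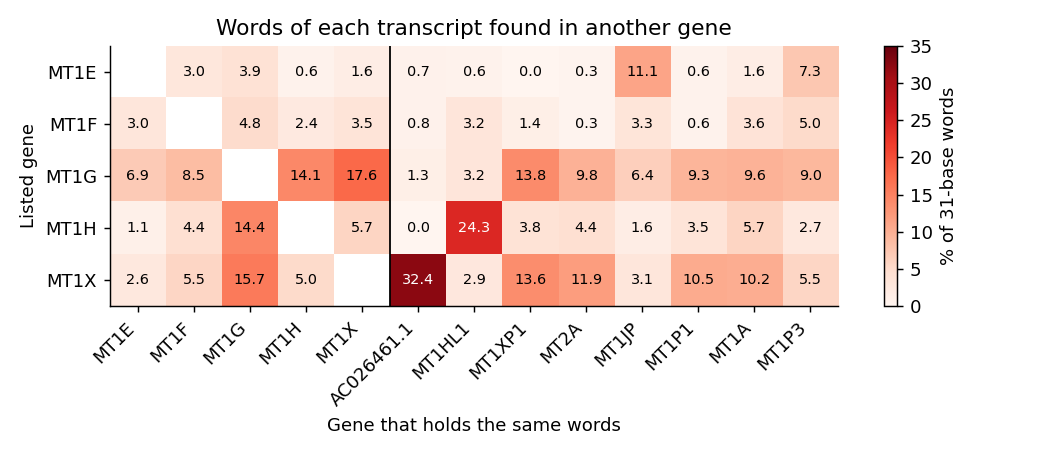
Percent of the 31-base words of each listed metallothionein transcript (rows) that also occur in transcripts of another gene (columns), with the 5 members left of the vertical line and the 8 other genes with the highest values right of it. MT1X and AC026461.1 have the highest value, 32.4%, and MT1F the lowest total, 8.33%.

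The members are among the shortest genes in the table, at 397 to 519 bases, against a median of 3145 bases over all listed genes. Listed genes were selected on their ratio, and an effect of length was not tested. Of the 15 other listed genes of at most 519 bases, 6 were lower and 9 higher, with log2 ratios between -4.49 and 5.21. Among them, the ribosomal protein gene RPS28 (401 bases) was at 313 FPKM in the Tfcp2l1 shRNA library and 630 FPKM in the scramble library, and the apolipoprotein gene APOA2 (473 bases) was at 10.5 FPKM in the Tfcp2l1 shRNA library and 1.05 FPKM in the scramble library.

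The family lies in a row on chromosome 16. In RefSeq's order, the 11 protein-coding genes from MT4 to MT1X are all metallothioneins, and 5 of them are listed, those that the rule takes. Over all tested genes, the authors listed 4.98% as lower and 5.86% as higher. Among protein-coding genes, MT1F, MT1G, MT1H and MT1X follow each other directly, and MT1E is separated from them by MT1M, MT1A and MT1B, all without a row. Of the 10 protein-coding genes on the MT4 side, SLC6A2 (the noradrenaline transporter) was listed. It was lower, at 0.01 FPKM in the Tfcp2l1 shRNA library, from 1 inferred read, and at 0.26 FPKM in the scramble library, from 20 reads, a ratio of 0.0517 (interval 0.00125 to 0.323). Of the 10 on the MT1X side, 2 were listed, both lower. HERPUD1, which acts in the degradation of proteins from the endoplasmic reticulum, was at 7.42 FPKM in the Tfcp2l1 shRNA library and 18.3 FPKM in the scramble library, 2.46-fold lower (interval of the ratio 0.356 to 0.464). The membrane protein gene PLLP was at 1.00 FPKM in the Tfcp2l1 shRNA library and 2.57 FPKM in the scramble library.

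For the lists that follow, the authors listed 4.98% of tested genes as lower and 5.86% as higher. None of 10 regulators linked to metallothionein control, MTF1 among them, had a row. Of 24 zinc transporter genes, 3 were listed, 2 higher and 1 lower. SLC30A3, which loads zinc into vesicles, was at 1.35 FPKM in the Tfcp2l1 shRNA library and 3.98 FPKM in the scramble library, 2.92-fold lower (interval of the ratio 0.254 to 0.458). SLC39A8, which imports zinc and manganese, was at 17.8 FPKM in the Tfcp2l1 shRNA library and 8.37 FPKM in the scramble library, 2.13-fold higher (interval 1.93 to 2.35). The vesicular zinc transporter SLC30A4 was near the floor, with 23 reads in the Tfcp2l1 shRNA library and 2 in the scramble library. The zinc exporter SLC30A1, a known MTF1 target, was among the 21 zinc transporter genes without a row. No row can mean a difference within the authors' limits, too few reads or no expression. These cannot be told apart here, for SLC30A1 as for MTF1. Of 18 copper genes STEAP2, a metalloreductase, was listed, at 2.42 FPKM in the Tfcp2l1 shRNA library and 5.88 FPKM in the scramble library, and of 15 iron genes none was. The authors' deposited table gives no gene ontology term for the 5 members. It marks 20 other genes with the term response to metal ion, 14 of them higher and 6 lower, a count made after the values were seen. Of all listed genes, 1084 were higher and 921 lower.

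Genes of the other inputs to metallothioneins were listed in both directions. Of 21 genes of the oxidative stress response, 4 were listed, 2 higher and 2 lower, against 5.86% of tested genes higher and 4.98% lower. HMOX1, heme oxygenase, was at 3.32 FPKM in the Tfcp2l1 shRNA library and 8.43 FPKM in the scramble library, 2.53-fold lower (interval of the ratio 0.316 to 0.490). TXNIP, the thioredoxin inhibitor, was at 28.1 FPKM in the Tfcp2l1 shRNA library and 223 FPKM in the scramble library. NQO1, a quinone reductase, was higher at 13.3 FPKM in the Tfcp2l1 shRNA library and 6.34 FPKM in the scramble library, as was the glutathione peroxidase gene GPX2 at 2.71 FPKM in the Tfcp2l1 shRNA library and 0.78 FPKM in the scramble library.

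The table lists 4 of 11 glucocorticoid targets, with 3 of them lower and 1 higher, against 4.98% of tested genes lower and 5.86% higher. ANGPTL4, a lipoprotein lipase inhibitor, was at 1.05 FPKM in the Tfcp2l1 shRNA library and 5.84 FPKM in the scramble library, 5.52-fold lower (interval of the ratio 0.129 to 0.251). CRISPLD2 and the transcription factor gene KLF9 were 3.23-fold and 2.36-fold lower. NFKBIA, the inhibitor of NF-kappaB, was the higher member, at 20.9 FPKM in the Tfcp2l1 shRNA library and 8.56 FPKM in the scramble library. Of 11 heat shock genes HSPA1A was listed and higher, at 28.7 FPKM in the Tfcp2l1 shRNA library and 13.6 FPKM in the scramble library, a level that is uncertain because HSPA1B is a near-identical copy.

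Markers of cell state differed between the libraries too. By comparison, 4.98% of all tested genes were listed as lower and 5.86% as higher. Of 10 pluripotent stem cell markers, 4 were listed (SOX2, PODXL, UTF1 and PRDM14), all lower, with a summed level of 198 FPKM in the Tfcp2l1 shRNA library and 533 FPKM in the scramble library, and POU5F1 and NANOG were among the 6 without a row. All 10 primitive streak and endoderm markers were listed and higher, at a sum of 1366 FPKM in the Tfcp2l1 shRNA library and 11.8 FPKM in the scramble library, where SOX17 was at the floor. Of 8 fibroblast or feeder markers, COL1A1 was lower (24.4 FPKM in the Tfcp2l1 shRNA library and 110 FPKM in the scramble library) and PDGFRA higher. Of 8 hepatocyte or yolk sac markers (APOB and HNF4A) and 6 neural markers (NES and SIX3), 2 each were listed, all higher. APOB, HNF4A and SIX3 were below 1 FPKM in both libraries. NES was at 252 FPKM in the Tfcp2l1 shRNA library and 95.9 FPKM in the scramble library. In bulk RNA, fewer cells that express metallothioneins and less metallothionein RNA per cell cannot be told apart, and the part of these cell states in the metallothionein difference was not tested.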

How the data were processed

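RNA of HES2 cells (1 ug per library) went into BGISEQ-500 libraries, according to the labels' protocols. The submitters' processing notes name hg19 and Bowtie 0.12.2. Not given in the sources used here are the quantifier, the strand setting and the handling of shared reads. The authors' deposited table holds a level per library (FPKM, with a lowest value of 0.01), a log2 ratio equal to that of the levels, a p-value and a false discovery rate. Its header calls the levels expression. They were read as FPKM because reads inferred from the p-values scaled with level, length and depth, and RPKM cannot be told apart from FPKM.

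Whole reads were sought that give the deposited p-value under a Poisson comparison of 2 libraries (the Audic and Claverie test with its smaller tail doubled), to within 5e-05 on its natural log and 3% of the ratio of levels. A single pair was found for 1627 of 1926 genes with a p-value above 0, including all 5 members. Listed genes had 12 or more reads over both libraries (median 273), and members 23 to 684. On simulated independent reads, drawn without selection on the ratio, the true ratio lay inside the interval in 96.0% of 200 draws. This does not cover the selection of listed genes or reads shared between copies. Log2 ratios used FPKM with a pseudocount of 0.1, which understates ratios of low genes. No test between conditions was made with 1 library per group, so no count model was fitted.

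Named genes are the members, TFCP2L1, and at most 3 highest and 3 lowest listed genes from each of 9 gene lists (149 members). The 3 genes with a symbol nearest to MT1X and to MT1G are named too. RPS28 and APOA2 were chosen after their values were seen. Some genes without a row, such as MTF1 and SLC30A1, are named as well. Members, lists and markers were chosen with earlier results of these data known. Sequences are on GRCh38, while the levels come from hg19. Python 3.11.15, SciPy 1.17.1 and Biopython 1.88 were used, with alternatives in the pseudocount, the filter, the members summed and the measure of the ratio.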

Additional observations from a re-analysis of the deposited data

How the results depend on the processing

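Of 38 alternative values, 32 moved by no more than counting error or, for counts, 1.5 times. Part of this was set in advance. The range for MT1H has no lower end, and the median was judged by the interval of MT1X. The count of members under the deposited log2 ratio was fixed by the authors' limit. The direction of the alternative values is no check, because every member was listed as lower and the alternatives use the same libraries. The mean log2 ratio of the members was -2.66, against a median of -1.85. At 5 FPKM or more in a library, 3 members (MT1X, MT1G and MT1F) and 301 listed genes were at least 2-fold lower. With a pseudocount of 1 FPKM, 364 of the listed genes were, against 710 with 0.1 FPKM, while all 5 members still were. The log2 ratio of the summed level was -2.01, and -2.23 without MT1X. The log2 ratio of MT1H was between -8.22 (the authors' deposited table) and -1.98 (pseudocount of 1 FPKM). No paired analysis was possible because there was 1 library per group, and no library could be left out. Depth limits MT1H, MT1G and MT1E most, with 12 reads or fewer each in the Tfcp2l1 shRNA library.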
